A study of Caenorhabditis elegans with 12 samples.

Results

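SIN-3 binding sites in L3 larvae, the third larval stage of Caenorhabditis elegans, are the 1715 peaks of the SIN-3 ChIP-seq list, out of 7558 peaks in 6 lists. Every peak of the SIN-3 list was taken and no peak was filtered out. ChIP-seq recovers DNA crosslinked to a protein with an antibody and sequences it, and a peak is an interval where recovered reads pile up. Wild-type N2 animals, fed HB101 bacteria in liquid medium at 20°C, were harvested as whole L3 larvae, so each peak is a mixture over all tissues of the animal. SIN-3 was immunoprecipitated with antibody Q6013 in 2 replicates, which the authors combined into 1 list. BLMP-1 (982 peaks), JMJD-2 (816), SCC-1 (1115), TOP-2 (464) and ZFP-1 (2466), the other 5 lists, came from the same stage and strain, each also with 2 combined replicates, and are used here as the comparison. Nothing in the lists gives peak height, read number or replicate, so depth is unknown and no replicate error can be given. A list without SIN-3 protein or with a mock antibody was not analysed here.

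SIN-3 is a large scaffold protein that holds histone deacetylases and their partners together, and its yeast and animal relatives bring deacetylase activity to chromatin without binding DNA in a sequence-specific way themselves. SCC-1 is a subunit of cohesin, the ring complex that holds DNA segments together, JMJD-2 is a histone demethylase, ZFP-1 is a zinc finger chromatin protein, BLMP-1 is a zinc finger transcription factor and TOP-2 is a type II topoisomerase, which passes DNA strands through each other. In worms the autosomes have gene-dense centers and repeat-rich arms, and the X Chromosome differs from the autosomes in dosage compensation and in its silencing in the germline.

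SIN-3 sites were most crowded on Chromosome III and most sparse on X. Chromosome III held 388 peaks, or 28.1 per Mb with a 95% exact Poisson interval of 25.4 to 31.1. Chromosome I held 339 peaks (22.5 per Mb), II held 284 (18.6), IV held 323 (18.5), V held 238 (11.4) and X held 143 (8.09, interval 6.81 to 9.52). The density on III was thus 3.48 times that on X, whereas the highest chromosome exceeded the lowest by 2.82 times for SCC-1, 2.30 times for TOP-2, 2.06 times for JMJD-2, 1.82 times for ZFP-1 and 1.48 times for BLMP-1. All intervals on shares and densities cover counting error over peaks only, and neighboring peaks are not independent.

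Chromosome III took 22.6% of SIN-3 peaks, against 17.2% of the peaks of the other 5 lists together. The difference was 5.46 percentage points with a 95% interval of 3.30 to 7.71 (Fisher's exact test, two-sided, adjusted exact p = 1.41e-06 over 6 chromosomes). With peaks less than 10 kb apart merged in every list, it was 3.10 points (adjusted exact p = 0.0333). Part of this follows from the low share on X, since shares sum to the whole list. Among autosomal peaks alone, the share on III was 24.7% for SIN-3 and 20.8% for the other lists, and the difference was 3.86 points (adjusted exact p = 0.00764). Set against each list singly, the SIN-3 share on III was higher than that of BLMP-1, JMJD-2, SCC-1 and ZFP-1 by 4.98 to 7.25 points (adjusted exact p at most 0.00510). Against TOP-2 the difference was 3.66 points with an interval of −0.61 to 7.54 (adjusted exact p = 0.111). Chromosomes I, II, IV and V did not pass the test against the pooled lists (adjusted p from 0.224 to 0.482).

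On X, SIN-3 had 8.34% of its peaks, against 17.5% for the pooled lists (adjusted exact p = 9.58e-22). No difference from SCC-1 was detected there. SCC-1 had 8.52% of its peaks on X, and the difference between SIN-3 and SCC-1 was −0.18 points with an interval of −2.34 to 1.87 (adjusted exact p = 0.890). The other 4 lists each exceeded SIN-3 by 9.80 to 16.9 points. Per Mb of X there were 8.09 SIN-3 peaks and 5.37 SCC-1 peaks.

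**Figure D1:**
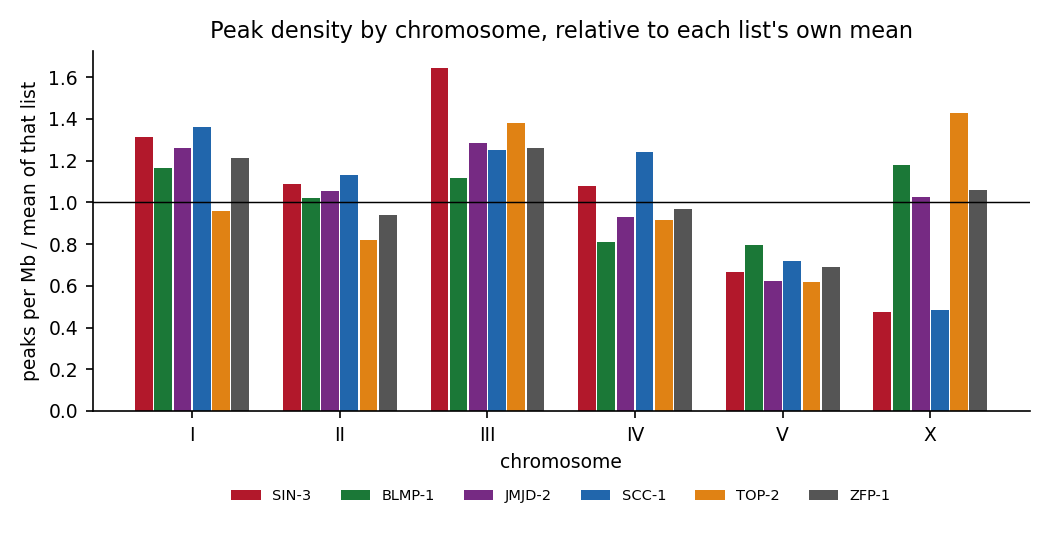
Peaks per Mb on each chromosome, divided by the mean of that list over all chromosomes, for SIN-3 and the other 5 lists (bars; the line marks the mean of a list). SIN-3 stands highest of the 6 on III and is the lowest on X together with SCC-1, where the 2 lists have 8.09 and 5.37 peaks per Mb.

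Along a chromosome, SIN-3 sites were spread over the whole length, with local steps. Each chromosome was cut into 10 equal parts, with its end set at the rightmost peak over all lists. On III the second part from the left held 61 of the 388 peaks (15.7%, or 44.3 per Mb), against 8.18% of the peaks of the other lists on III. No other such part of an autosome had so large a share of the SIN-3 peaks on its chromosome. On II the second and the third were thin, with 14 and 16 peaks, and the eighth and the last were full, with 39 and 38. On V the second held 9 peaks and the third 32. On X the first held 27 of 143 peaks (18.9%) and the ninth held 21 (14.7%), while the fourth and the fifth held 9 each.

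**Figure D2:**
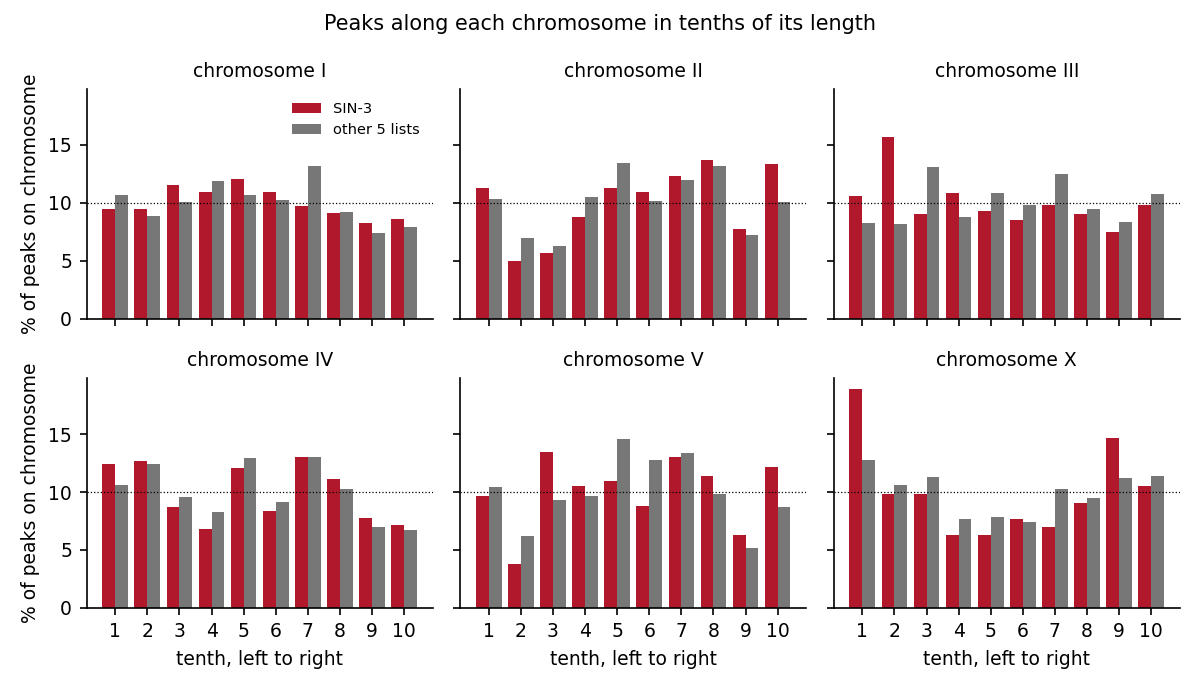
Share of the peaks on each chromosome (percent, y axis) in each of 10 equal parts of its length from left to right (x axis), for SIN-3 (red) and the other 5 lists pooled (gray). The dotted line marks an even 10%. The second part of III stands out for SIN-3, with 15.7% against 8.18% for the other lists.

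SIN-3 sites lay slightly more often in the outer parts of the autosomes than sites of the other proteins, but the difference did not pass the test. With each autosome divided into a left end, a center and a right end of about equal length, 1032 of 1572 autosomal SIN-3 peaks (65.6%) lay in the ends, against 62.6% for the other lists. The difference was 3.09 points with an interval of 0.350 to 5.78 (exact p = 0.0278, adjusted exact p = 0.167 over 6 tests). By autosome the SIN-3 share was 62.8% to 67.8%, and no autosome passed. Over all autosomes the difference was 1.20 points with peaks less than 1 kb apart merged, 0.70 points at 10 kb and 1.62 points without ZFP-1. Without the densest 1-Mb window, which lies on III, it was 2.21 points, and −1.17 points on III alone. None of these passed (adjusted exact p from 0.382 to 0.889). The result also depended on where the ends were drawn. With ends of 25% of the length on each side, 48.5% of SIN-3 peaks and 43.5% of the others lay in the ends (adjusted exact p = 0.00304), and III passed by itself with 53.6% against 45.1% (adjusted exact p = 0.0146). The outer 25% of III includes the stretch from 900001 to 3000000, described below. Ends of 25% were not tried without this stretch. On X, 77.6% of SIN-3 peaks lay in the ends, a share that was 78.9% for SCC-1, 78.6% for TOP-2, 76.4% for JMJD-2 and 70.1% for both BLMP-1 and ZFP-1.

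Left and right ends carried similar numbers of SIN-3 sites. Over the autosomes there were 526 peaks in left ends and 506 in right ends, which put 51.0% on the left (95% exact interval 47.9 to 54.1, exact binomial test, adjusted exact p = 0.647). Merging peaks less than 10 kb apart turned this small lean to the right. The split leaned left on I (116 and 97), III (146 and 117), IV (119 and 97) and X (58 and 53), and right on V (71 and 85). On III the lean turned to the right without the densest 1-Mb window (−7.35 points from an even split, adjusted exact p = 0.147). Chromosome II had the most uneven split, with 74 left and 110 right (40.2% left, exact p = 0.00968, adjusted exact p = 0.0678). None of the 7 tests passed after adjustment and 1, on II, had an unadjusted p below 0.05. Once peaks less than 1 kb apart were merged, II did pass (adjusted exact p = 0.0208). The other lists leaned the same way on II, with 44.3% on the left, and the difference of −4.04 points between SIN-3 and them did not pass (adjusted exact p = 0.807). In none of the 7 comparisons of left shares between SIN-3 and the other lists was an unadjusted p below 0.05.

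At the scale of 1 Mb, SIN-3 counts had the largest ratio of variance to mean of all lists. Over 97 full bins of 1 Mb, SIN-3 had at least 3 peaks, a median of 16 and at most 59 peaks per bin. The variance of the bin counts was 4.62 times their mean, and between 1.99 and 3.25 times for the other lists. On the 80 autosomal bins alone it was 3.77 for SIN-3, and for ZFP-1, the nearest, it was 3.59. This ratio tends to rise with the number of peaks per bin, so it does not rank the lists by unevenness. It was not tested. SIN-3 bin counts ranked most like those of SCC-1, with a Spearman correlation of 0.66 over the 80 autosomal bins, followed by JMJD-2 (0.59), ZFP-1 (0.48), BLMP-1 (0.47) and TOP-2 (0.33). These correlations are descriptions. All lists share the genes and the sequence of a bin, and the number of peaks in a list limits how high its correlation can be.

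Each bin was also tested for its share of SIN-3 peaks against its share of the other lists, 103 bins in all. SIN-3 was higher in 2 bins, or 1.94%, and lower in 0 bins, or 0%, at an adjusted p under 0.05. At an unadjusted p under 0.05, 6 bins were higher and 10 lower. Both bins that passed lay side by side near the left end of III. From 1000001 to 2000000 there were 59 SIN-3 peaks (3.44% of its list) and 66 peaks of the other lists (1.13%, odds ratio 3.12, adjusted exact p = 1.80e-07). From 2000001 to 3000000 there were 36 SIN-3 peaks and 55 others (odds ratio 2.26, adjusted exact p = 0.0175). Neither passed once peaks less than 10 kb apart were merged, nor once SIN-3 runs of 4 or more peaks, described below, were left out. Other bin settings also called a place on III outside this left part. With bins shifted by 500 kb it was 4500001 to 5500000 (36 SIN-3 and 54 other peaks, odds ratio 2.30, adjusted exact p = 0.0107). With 500-kb bins it was 4500001 to 5000000 (22 and 23 peaks, odds ratio 3.29, adjusted exact p = 0.0109). With bins of 2 Mb, 7 bins were lower for SIN-3, and all 7 lay on X. The number of 2-Mb bins tested was not recorded. Each bin was set against the whole list, so the low SIN-3 share on X (8.34% against 17.5%) enters all 7. They are not separate sparse regions.

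**Figure D3:**
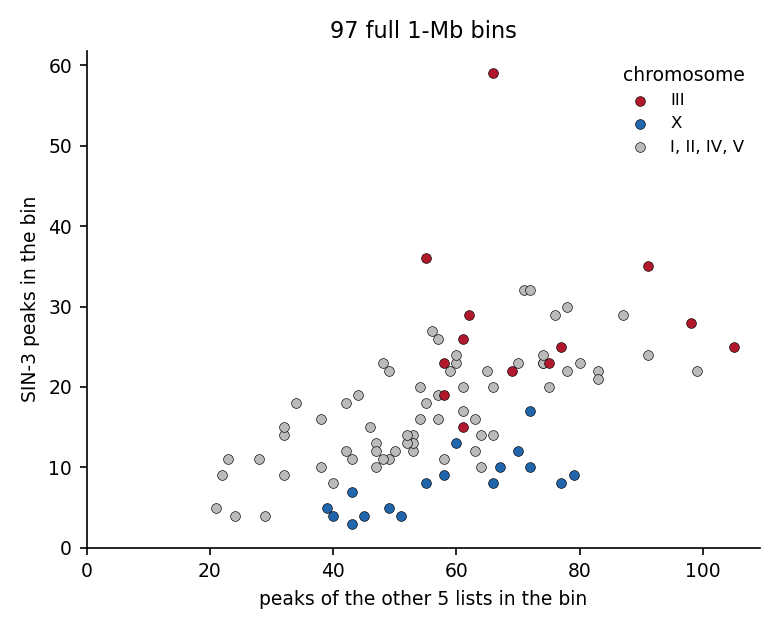
SIN-3 peaks (y axis) against peaks of the other 5 lists together (x axis) in 97 full bins of 1 Mb, 1 point per bin, colored by chromosome. A bin on III with 59 SIN-3 and 66 other peaks stands above the rest, and the bins of X lie along the lower edge.

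The densest windows of SIN-3, found by sliding a 1-Mb window in steps of 100 kb, differed in how many of their peaks had a partner, that is, overlapped a peak of another list by at least 1 bp. The densest, III from 900001 to 1900000, held 59 peaks, of which 6 (10.2%) had a partner. The next ones without overlap were III from 4700001 to 5700000 with 37 peaks (14 with a partner), III from 2000001 to 3000000 with 36 (10), I from 6200001 to 7200000 with 34 (16) and III from 10400001 to 11400000 with 32 (13). Together these 5 windows held 198 peaks, 11.5% of the list, in 4.99% of the length. The densest windows of the remaining chromosomes were II from 11100001 to 12100000 with 31 peaks, IV from 11000001 to 12000000 with 32, V from 14400001 to 15400000 with 22 and X from 1 to 1000000 with 17. On X that window had 10 of its 17 peaks with a partner.

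The left part of III from 900001 to 3000000 was singled out after these values were seen. It held 97 SIN-3 peaks, 5.66% of the list, and 2.14% of the peaks of the other lists. SIN-3 density there was 46.2 per Mb, against 24.9 per Mb on the rest of III. In this stretch 18 of 97 peaks (18.6%) had a partner, against 43.6% on the rest of III and 45.4% over all other SIN-3 peaks. The other lists had 53 peaks of ZFP-1, 25 of BLMP-1, 19 of SCC-1, 16 of JMJD-2 and 12 of TOP-2 there.

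Part of this density came as tight runs of peaks. A run is a chain of SIN-3 peaks whose midpoints follow each other at 5 kb or less. Of the 1715 peaks, 1242 stood alone and 473 (27.6%) fell into 197 runs. There were 154 runs of 2 peaks, 29 of 3, 4 of 4, 6 of 5, 2 of 7 and 2 of 9. The 14 runs of 4 or more peaks held 78 peaks. By chromosome there were 7 such runs on III, 3 on I, 2 on II, 1 each on IV and V and 0 on X. Of the 14 runs, 6 with 39 peaks lay between 900001 and 3000000 on III. Outside runs of this size the same stretch still had 58 peaks, or 27.6 per Mb, and 27.6% of these had a partner.

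The 2 longest runs were both in this stretch and had no partner at all. The first, III from 1180092 to 1187273, had 9 peaks of 174 to 246 bp within 7182 bp, with a median step of 696 bp between midpoints. The second, III from 1545541 to 1555759, had 9 peaks within 10219 bp and a median step of 705 bp. No peak of any other list fell within the span of either run. A run of 7 peaks on III from 2208506 to 2215920 had none either. The other run of 7, II from 694407 to 699088, had 2 peaks with a partner, both SCC-1, and its span held 3 SCC-1 peaks. Of the 14 runs, 12 lay in the outer 20% on either side of their chromosome, and 5 had no partner. The 12 include the 6 runs in the left stretch of III. Of all autosomal SIN-3 peaks, 48.5% lay in the outer 25% on either side, a wider zone than the outer 20%, so the 2 values are not directly comparable. Whether runs differ from single peaks in their place on the chromosome was not tested. Median steps within the 14 runs were 585 to 3015 bp.

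The share of SIN-3 peaks with a partner was lowest in the long runs. It was 46.4% for peaks that stood alone (95% exact interval 43.6 to 49.2), 41.6% in runs of 2, 41.4% in runs of 3 and 15.4% in runs of 4 or more (12 of 78, interval 8.21 to 25.3). Long runs existed in the other lists too, 38 for ZFP-1, 9 for BLMP-1, 6 for SCC-1 and 5 each for JMJD-2 and TOP-2. These held 7.70% of ZFP-1 peaks, 4.48% of BLMP-1, 3.50% of SCC-1, 2.70% of JMJD-2 and 4.53% of TOP-2 peaks. For SIN-3 the share was 4.55%. The longest run had 11 peaks for SCC-1 and 10 for ZFP-1, against 9 for SIN-3. In the long runs of SCC-1, 10.3% of peaks had a partner in another list, against 60.9% of its lone peaks. The shares in long runs and among lone peaks were 40.9% and 61.7% for JMJD-2 and 29.5% and 36.3% for BLMP-1. They were 9.52% and 17.9% for TOP-2. For ZFP-1 the share was higher in long runs, with 32.6% and 26.4%. In the left stretch of III, ZFP-1 had 1 long run and BLMP-1, JMJD-2, SCC-1 and TOP-2 had 0.

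Peaks with a neighbor within 5 kb had a partner less often than peaks without one. The shares were 37.2% of 473 and 46.4% of 1242, a difference of −9.17 points with an interval of −14.2 to −3.94 (Fisher's exact test, adjusted exact p = 0.00436 over 6 tests). SCC-1 partners (23.7% and 29.5%, adjusted exact p = 0.0374) and ZFP-1 partners (12.3% and 17.0%, adjusted exact p = 0.0374) were likewise rarer beside a neighbor. JMJD-2, BLMP-1 and TOP-2 partners did not pass. None of the 3 calls held without the long runs. With runs of 4 or more left out, the difference was −4.86 points for any partner, −3.65 for SCC-1 and −2.56 for ZFP-1 (adjusted exact p = 0.485 for each). Without the left stretch of III it was −4.99 points for any partner, −2.99 for SCC-1 and −3.37 for ZFP-1 (adjusted exact p from 0.361 to 0.516). With neighbors counted within 10 kb, SCC-1 (adjusted exact p = 0.0973) and ZFP-1 (adjusted exact p = 0.117) did not pass either.

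Taken over the whole list, most SIN-3 peaks had no close neighbor. Another peak of the same list lay within 1 kb of 9.91% of SIN-3 peaks. In the other lists this share was 5.64% (JMJD-2) to 20.3% (TOP-2). The median distance between neighboring midpoints was 32.0 kb and the mean was 58.4 kb. The median was 19.9 kb on III and 98.6 kb on X, with the others between. To compare lists of unequal size, gaps were scaled to the mean gap of the same list on the same chromosome, and a gap under 0.1 of that mean was called short. Short gaps made up 16.8% of 1709 SIN-3 gaps, against 20.9% over the other lists (difference −4.14 points, interval −6.15 to −2.03, exact p = 0.000152). The SIN-3 share was lower than that of TOP-2 (27.3%, adjusted exact p = 4.37e-06), BLMP-1 (21.8%, adjusted exact p = 0.00233) and ZFP-1 (21.5%, adjusted exact p = 0.000348). Against SCC-1 (19.0%) the difference was −2.23 points with an interval of −5.18 to 0.64, and against JMJD-2 (17.0%) it was −0.24 points with an interval of −3.47 to 2.81. When the other lists were merged into single intervals first, the pooled difference was −1.89 points (adjusted exact p = 0.0870). Which single lists passed depended on the setting. With short gaps under 0.05 of the mean, SCC-1 passed (−3.13 points, adjusted exact p = 0.0242) and ZFP-1 did not (−1.71 points, adjusted exact p = 0.129). SCC-1 also passed against its peaks without SIN-3 overlap (−4.60 points, adjusted exact p = 0.0137). It passed too without SIN-3 runs of 4 or more (−4.92 points, adjusted exact p = 0.000862).

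Close neighbors were unevenly placed. Within 5 kb of another SIN-3 peak were 37.5% of peaks in left ends of autosomes, 28.7% in right ends, 20.6% in centers and 14.0% on X. By chromosome III was highest with 34.0%. A fixed distance finds more neighbors where peaks are denser, and density was 28.1 per Mb on III and 8.09 on X. The left ends also include the left stretch of III with its long runs. These shares were not tested or set against the other lists. The longest stretch without a SIN-3 peak lay on X, between midpoints 3106312 and 4016130 (910 kb), followed by one on V, between 16965857 and 17870737 (905 kb). The longest on II was 415 kb, on IV 374 kb, on III 321 kb and on I 285 kb.

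**Figure D4:**
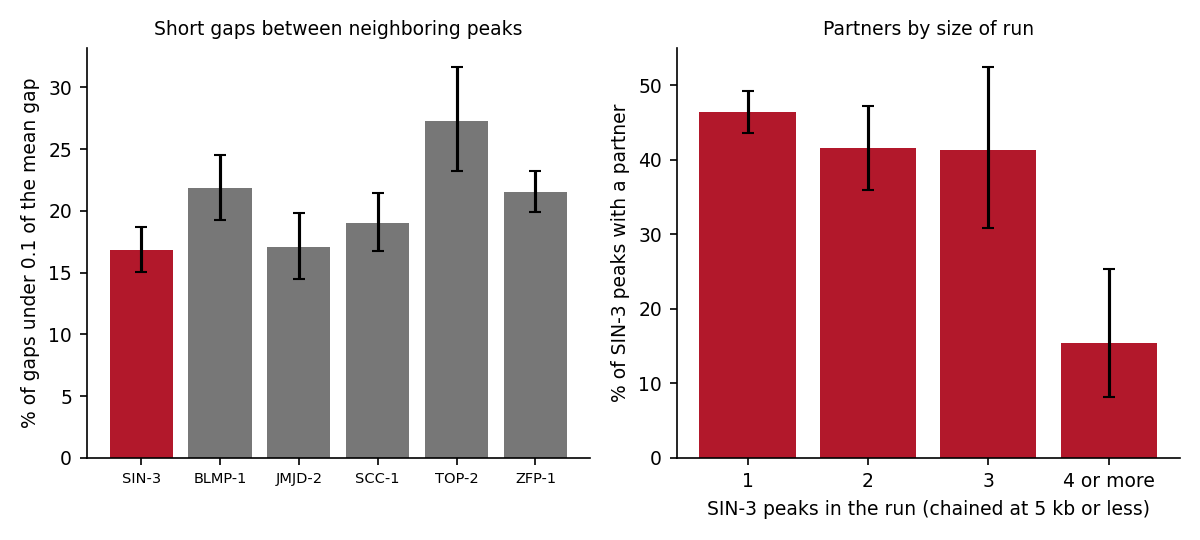
Left, share of gaps between neighboring peaks that were under 0.1 of the mean gap of that list (percent), for SIN-3 (red) and the other lists (gray). Right, share of SIN-3 peaks with a partner in another list (percent) by the number of peaks in the run; error bars are 95% exact intervals that cover counting error only. The share was 15.4% in runs of 4 or more and 41.4% to 46.4% in shorter runs and lone peaks.

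Of the 1715 SIN-3 peaks, 752 (43.8%, interval 41.5 to 46.2) overlapped a peak of at least 1 other list and 963 overlapped none. There were 470 peaks with 1 partner, 190 with 2, 76 with 3 and 16 with 4. None had all 5, which allows a share of up to 0.215%. SCC-1 was the most frequent partner, at 478 peaks (27.9% of SIN-3 and 42.9% of SCC-1 peaks). JMJD-2 was at 303 (17.7% of SIN-3, 37.0% of JMJD-2), ZFP-1 at 269 (15.7% of SIN-3, 10.9% of ZFP-1), BLMP-1 at 80 (4.66% and 8.15%) and TOP-2 at 12 (0.70% and 2.59%). The lists differ in size, so the 2 shares of a pair differ. Among the other lists, the share with any partner was 60.5% for JMJD-2, 56.8% for SCC-1, 32.3% for BLMP-1, 26.6% for ZFP-1 and 14.9% for TOP-2, and each differed from that of SIN-3 (adjusted exact p at most 2.91e-09). Shared sites count in both shares of such a pair. Each list was scored against the other 5, so the pool of possible partners differed from list to list. The p-values do not separate this from a difference in sharing.

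The partners fell into a few combinations. SCC-1 alone was at 241 SIN-3 peaks, ZFP-1 alone at 119, JMJD-2 with SCC-1 at 107, JMJD-2 alone at 86, and JMJD-2 with SCC-1 and ZFP-1 at 54. Of the SIN-3 peaks with SCC-1, 50.4% had no further partner, a share that was 58.3% for TOP-2 (7 of 12 peaks), 44.2% for ZFP-1, 28.4% for JMJD-2 and 21.3% for BLMP-1.

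Partners occurred together at SIN-3 peaks in 6 of the 10 pairs tested. SCC-1 was at 63.0% of SIN-3 peaks with JMJD-2 and at 20.3% of those without (odds ratio 6.68, Fisher's exact test, adjusted exact p = 3.42e-45). ZFP-1 was at 48.8% of those with BLMP-1 and 14.1% of those without (odds ratio 5.81, adjusted exact p = 3.27e-12). SCC-1 (53.8% and 26.6%) and JMJD-2 (40.0% and 16.6%) were also more frequent with BLMP-1 than without it. ZFP-1 was at 30.7% with JMJD-2 and 12.5% without, and at 22.6% with SCC-1 and 13.0% without (odds ratio 1.95), the smallest difference of the 6. The 4 pairs with TOP-2 rested on 12 peaks and did not pass. With SIN-3 peaks less than 10 kb apart merged, 7 pairs passed. ZFP-1 with TOP-2 was then among them (40.9 points, adjusted exact p = 0.000114). The methods describe leaving out intervals that many factors occupy, under the analysis of contacts between binding sites. Whether such sites were taken out of the lists before deposit is not stated in the methods or labels. Their part in these values was not tested.

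SIN-3 peaks on X had a partner more often than those on autosomes. The shares were 65.0% of 143 and 41.9% of 1572, a difference of 23.1 points with an interval of 14.6 to 30.8 (adjusted exact p = 1.27e-06 over 18 tests). The difference was largest for ZFP-1 partners, with 37.1% on X and 13.7% on autosomes (adjusted exact p = 9.25e-10). JMJD-2 partners (29.4% and 16.6%, adjusted exact p = 0.00199) and TOP-2 partners (5 of 143 and 7 of 1572, adjusted exact p = 0.00829) were also more frequent on X. SCC-1 (30.1% and 27.7%, adjusted exact p = 0.774) and BLMP-1 (4.90% and 4.64%, adjusted exact p = 0.980) did not pass.

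The same overlaps counted as shares of the partner lists did not show this excess on X for ZFP-1 or JMJD-2. SIN-3 was at 11.7% of ZFP-1 peaks on X and at 10.8% on autosomes, a difference of 0.94 points with an interval of −2.05 to 4.44 (adjusted exact p = 0.665). SIN-3 was at 28.4% of JMJD-2 peaks on X and at 38.9% on autosomes (adjusted exact p = 0.0462), and at 3.43% of BLMP-1 peaks on X and 9.38% on autosomes (adjusted exact p = 0.0194), so both were lower on X. For SCC-1 (45.3% and 42.6%) and TOP-2 (4.27% and 2.02%) the differences did not pass. X held 143 SIN-3 peaks and 461 ZFP-1 peaks.

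**Figure D5:**
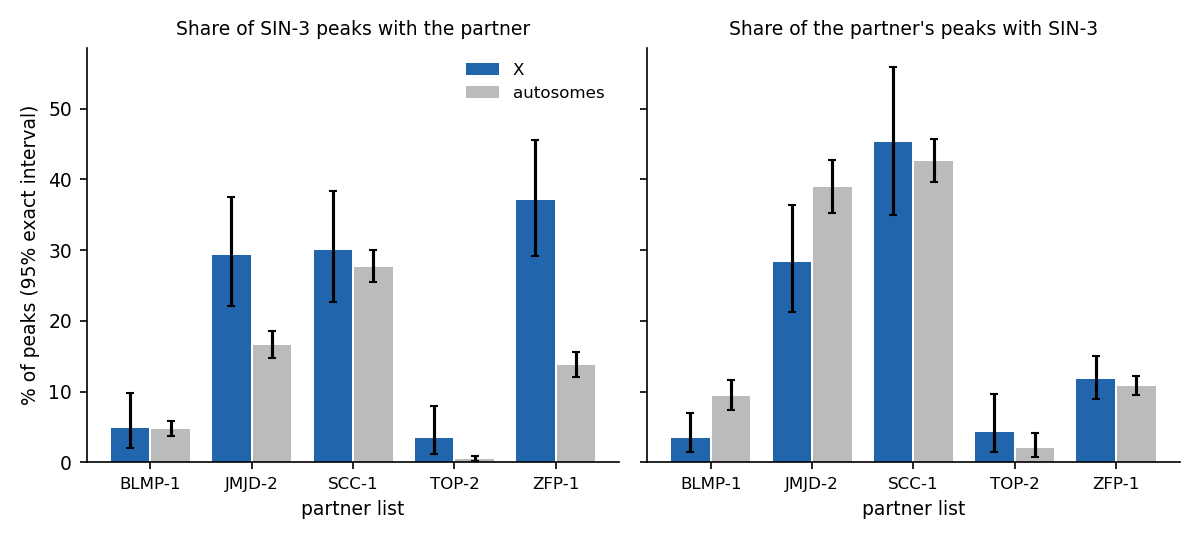
Left, share of SIN-3 peaks on X (blue) and on autosomes (gray) that overlapped each partner list. Right, share of the peaks of each partner list on X and on autosomes that overlapped SIN-3; error bars are 95% exact intervals that cover counting error only. ZFP-1 differs between X and autosomes on the left (37.1% and 13.7%) but little on the right (11.7% and 10.8%).

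Between ends and centers of autosomes, and between left and right ends, partner shares differed less than between X and autosomes. On autosomes 40.6% of SIN-3 peaks in the ends and 44.4% in the centers had a partner (adjusted exact p = 0.377). With ends of 25%, the shares were 38.1% and 45.5% (adjusted exact p = 0.0106), and both JMJD-2 (13.8% and 19.3%) and ZFP-1 (11.3% and 16.1%) partners were then rarer in the ends. Left and right ends had 39.4% and 41.9% (adjusted exact p = 0.774). Neither direction held once SIN-3 peaks less than 10 kb apart were merged (2.27 points between ends and centers, 0.75 points between left and right). By autosome the share with any partner was 37.4% on III, 38.7% on V, 44.0% on IV, 44.4% on II and 45.4% on I. Peaks with 3 or more partners made up 10.5% of those on X and 2.94% to 6.19% of those on an autosome.

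The 16 SIN-3 peaks with 4 partners lay on all 6 chromosomes. At 15 of them the partners were BLMP-1, JMJD-2, SCC-1 and ZFP-1, and at 1, X from 16681925 to 16682172, TOP-2 took the place of BLMP-1. The widest were IV from 1659029 to 1659359 (331 bp), IV from 654772 to 655055 and II from 10174391 to 10174667. Genes at these sites are not named, since an annotation of the assembly used by the lists was not used here.

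Where SIN-3 and a partner overlapped, their midpoints usually nearly coincided. The median distance between midpoints was 11 bp for SCC-1, 14.8 bp for TOP-2, 15 bp for JMJD-2, 25.8 bp for ZFP-1 and 43.3 bp for BLMP-1. Midpoints lay within 50 bp in 82.2% of SCC-1 overlaps, against 73.7% of overlaps with the other partners (adjusted exact p = 0.00189 over 5 tests), and in 57.5% of BLMP-1 overlaps, against 78.7% (adjusted exact p = 0.000218). BLMP-1 peaks at SIN-3 sites had a median width of 336 bp and were called with another program, whose part in this was not tested, while those of the other partners had medians of 234 to 251 bp. For ZFP-1 the share was 72.2%, against 78.8% of overlaps with the other partners (difference −6.59 points, adjusted exact p = 0.0509). The ZFP-1 difference passed at a limit of 25 bp (−17.2 points, adjusted exact p = 1.63e-06) and at 50 bp without the widest BLMP-1 peaks (−6.86 points, adjusted exact p = 0.0330). With a limit of 100 bp, none of the 5 partners passed the test.

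SIN-3 peaks were narrow and much alike, with a median of 235 bp, quartiles of 223 and 252 bp and a range of 79 to 551 bp. Above the median width were 51.5% of peaks with a partner and 47.9% of those without (adjusted exact p = 0.289), a difference that turned to −1.96 points with partners defined by midpoints at most 500 bp apart. Peaks with a neighbor within 5 kb were less often above it (43.6%) than peaks without one (51.7%, adjusted exact p = 0.0118), but this did not hold without the long runs (difference −4.78 points, adjusted exact p = 0.423). The median width was 221 bp in runs of 4 or more and 236 bp among lone peaks. The widest peak, II from 13575100 to 13575650, was 551 bp and had 3 partners, and the next, IV from 2641157 to 2641635 (479 bp) and X from 1376179 to 1376637 (459 bp), had none.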

How the data were processed

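The authors performed ChIP-seq in 12 samples, 2 replicates for each of 6 proteins. The submitters' processing notes name BWA, MACS2 and the ce10 assembly. The methods name YAPC for all peak lists but BLMP-1, for which MACS2 was used, and combination of replicates by IDR at a threshold of 0.01; the methods were followed. Their versions are not given there. The deposited lists hold peak positions and no score, so depth is unknown, replicates could not be compared and p-values measure counting error over peaks.

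Coordinates were counted from 1. A partner shared at least 1 bp. Shares were compared with two-sided Fisher's exact tests, with Benjamini-Hochberg adjustment within each family, and left with right ends by exact binomial tests; intervals are Clopper-Pearson at 95%, Poisson for densities and Newcombe for differences. Bins needed 10 peaks over all lists. Peaks were placed by midpoint. Named sites were the 5 densest windows, the bins that passed, the longest runs and gaps, and the peaks with most partners and greatest width. Members, lists and tests were chosen with earlier results of these data known. Only the calls of 1-Mb bins were checked on simulated lists. Their peaks were drawn independently from the other lists, so tight runs like those of SIN-3 were not simulated. Alternatives were other ends, bins, distances, overlaps, references and merging. Tests ran in scipy 1.17.1 with pandas 2.3.3 and numpy 2.4.6 under Python 3.11.15, and plots in matplotlib 3.10.9.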

Additional observations from a re-analysis of the deposited data

How the results depend on the processing

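Of 477 values recomputed under an alternative, 381 kept their direction and their side of the threshold, or their count within 1.5 times, 31 crossed the threshold without changing direction, 12 counts moved, and 53 differences changed sign, none of them past the threshold before or after. The count of 1-Mb bins with more SIN-3, 2 in the report, was 1 with the other lists merged into single intervals, 1 with peaks less than 1 kb apart merged, 0 with those less than 10 kb apart merged, 3 with bins shifted by 500 kb, 4 with 500-kb bins and 1 with 2-Mb bins. The count with less SIN-3, 0 in the report, was 4 against peaks of other lists that overlap no SIN-3 peak, 2 without peaks shared with 3 or more other lists, 3 with bins shifted by 500 kb, 2 with 500-kb bins and 7 with 2-Mb bins. The difference in short gaps was −1.89 points with merged intervals. With ends of 25%, the excess in the ends was 5.05 points and the difference in partners between ends and center was −7.35 points. With partners defined by midpoints at most 500 bp apart, the difference in partners beside a neighbor was −6.53 points (adjusted exact p = 0.0520). The count of partners that differ in midpoint distance, 2 in the report, was 0 at 100 bp, 3 at 25 bp and, in an alternative chosen after seeing the data, 3 without the widest BLMP-1 peaks. Alternatives chosen after seeing the data left out SIN-3 runs of 4 or more (0 bins with more SIN-3; −4.86 points for partners beside a neighbor), the left stretch of III (−4.99 points), or set SIN-3 against 1 list (III against TOP-2, 3.66 points; X against SCC-1, −0.18 points). The causes were not tested. No paired analysis was possible because the deposited lists combine the replicates, which also left no replicate to leave out. Leaving out runs removed them from SIN-3 alone.

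The differences that changed sign follow in percentage points, as they stood under each alternative. Without ZFP-1 among the other lists, the left share against the other lists was 1.13 on IV and −3.07 on X. With merged intervals, the share in the ends was 0.32 on I, and the left share was 1.02 on I and −0.17 on X. Against peaks without SIN-3 overlap, these were 0.46 and 1.52 on I. With peaks merged at 1 kb, the left end stood −0.21 from even over the autosomes, and the left share on IV was 0.64. With peaks merged at 10 kb, the share on V was 0.17, the share in the ends of III −2.19, the left end −2.42 from even over the autosomes, −6.25 on III and −1.65 on X, and the left share −3.06 on III and −3.68 on X. Without peaks shared with 3 or more lists, short gaps against JMJD-2 stood at 0.078 and the left share on X at −0.35. With ends of 25%, the share in the ends of I was 2.51 and BLMP-1 partners between ends and center −0.36. Without the densest window, the share in the ends of III was −1.17, the left end −2.004 over the autosomes and −7.35 on III, the left share on III −3.58, and partners between left and right 1.14 for any, 0.20 for SCC-1 and 0.86 for ZFP-1. With 50% of the SIN-3 peak covered, TOP-2 and ZFP-1 partners between left and right were −0.023 and 0.13. With midpoints at most 500 bp apart, JMJD-2 partners beside a neighbor were 1.12, TOP-2 with JMJD-2 0.16 and width with a partner −1.96. With SIN-3 merged at 10 kb, partners on X were −0.29 for BLMP-1 and −1.47 for SCC-1; between ends and center 2.27 for any, 0.26 for JMJD-2 and 2.61 for SCC-1; between left and right 0.75 for any, 0.26 for SCC-1 and 0.47 for ZFP-1; and TOP-2 was 0.69 with BLMP-1, 1.53 with JMJD-2 and 0.91 with SCC-1. With neighbors within 10 kb, TOP-2 partners were 0.033. Midpoint distances of TOP-2 were 4.69 at 25 bp and 1.48 at 100 bp, and those of ZFP-1 0.22 at 100 bp. Among alternatives chosen later, without long runs JMJD-2 partners beside a neighbor were 2.13 and ZFP-1 partners between left and right 0.82, without the left stretch of III the JMJD-2 value was 1.52, and among autosomal peaks the shares on I, II and IV were −0.69, −0.36 and −0.27.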
